A study of Mus musculus with 6 samples.

Results

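The cytosolic ribosomal protein genes, which encode the protein part of the ribosome outside mitochondria, were followed in mouse uterine luminal epithelium after deletion of Foxo1, a forkhead transcription factor. Genes were taken by symbol alone: those starting with Rpl or Rps and a digit, plus Rplp0, Rplp1, Rplp2, Rpsa and Fau, without the Rps6k kinases and without symbols containing -ps. The rule found 90 of the 24964 rows in the deposited FPKM table (expression divided by gene length and library depth), 54 named for the large 60S subunit and 36 for the small 40S subunit. By symbol the rule also takes in Rps19bp1, a binding protein of the 40S protein Rps19, the relative Rpl7l1, and Rpl32l, Rpl37rt and Rps4l, which GENCODE M21 types as processed pseudogenes. Of the 90, 85 averaged at least 1 FPKM across the 6 libraries and were tested, and each of those 85 also averaged above 1 FPKM in each genotype.

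RNA-seq had been made from epithelium laser-captured on pregnancy day 4 from 3 Foxo1dd and 3 Foxo1ff samples. Foxo1dd females were Pgrcre/+Foxo1f/f, with Cre at the progesterone receptor gene Pgr on 1 chromosome and floxed Foxo1 alleles. Foxo1ff females were Foxo1f/f and carried no Cre. Females of both genotypes had been kept on normal chow with littermates until 8 weeks old and mated with stud males. Cre driven by Pgr acts in every Pgr-expressing cell and not only in the luminal layer, and the presence of Cre at Pgr cannot be told apart from the loss of Foxo1 in this design. The labels call the samples bioreplicates without naming animals, and a p-value therefore speaks only to the spread among these libraries.

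Ribosomal proteins are needed in equal numbers, since nearly all of them occupy a single place in each subunit. Their mRNAs are therefore among the most abundant of a growing cell. Most begin with a C followed by a run of pyrimidines, the 5′ terminal oligopyrimidine (TOP) start, which lets mTOR signalling and the cap-binding protein Larp1 control their translation and storage together. In the mouse uterus, the luminal epithelium stops dividing before the embryo attaches.

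A TOP start was more frequent among these genes than among all genes of the promoter table. RefSeq starts on GRCm38.p6 were found for 69 of the 90 genes, and 16 of them (23.2%) had a C followed by at least 4 bases that were each C or T, on the gene's strand, exactly at the annotated first base, against 3.01% of all 27025 genes in that table. A run of that kind beginning anywhere from 10 bases before to 10 bases after the first base was present in 42 of the 69 (60.9%), against 34.4% of all genes. Of the tested genes in that table, 3.07% had the run at the first base and 37.1% within 10 bases of it. A gene counted when any of its listed starts matched. The windows below run from 15 bases before the annotated start to 15 bases into the transcript, with the pyrimidine run in capitals. They are shown because genes with a clear run include some that fell in Foxo1dd epithelium (Rpl38, Rplp2, Rpl35, Rps6, Rps10), some that passed in neither direction (Rpl28, Rps21, Fau) and the only gene that rose (Rps27).
Rpl38: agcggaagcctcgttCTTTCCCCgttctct
Rplp2: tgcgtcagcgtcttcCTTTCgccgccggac
Rpl35: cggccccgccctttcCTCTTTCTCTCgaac
Rps6: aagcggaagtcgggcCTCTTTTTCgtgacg
Rps10: gcgccgcgcacgcccCTTCCTTTCCagcct
Rpl28: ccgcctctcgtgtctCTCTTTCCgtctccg
Rps21: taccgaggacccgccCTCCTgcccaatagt
Fau: tgcgcgcccccacttCTTCCTCTTTCTTga
Rps27: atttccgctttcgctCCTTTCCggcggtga

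Among the genes called lower, 7 of 36 with a known start (19.4%) had the run exactly at the first base and 19 of 36 (52.8%) within 10 bases of it. Among the genes not called, 7 of 27 (25.9%) had it at the first base and 18 of 27 (66.7%) within 10 bases. A match describes these letters only, and annotated starts can lie some bases from the start used in this tissue.

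Foxo1 itself was at 1.72, 0.942 and 1.22 FPKM in the Foxo1dd samples, against 160, 119 and 111 FPKM in the Foxo1ff samples. Pgr, where Cre is inserted, was at 36.2, 29.9 and 28.3 FPKM in Foxo1dd, against 2.44, 1.64 and 2.02 FPKM in Foxo1ff. Steps in the low values put the divisor behind the FPKM at about 73700000 to 98300000 reads per library. Foxo1ff 1 and Foxo1dd 2 stood apart in ways that touch the ribosomal protein genes. Foxo1ff 1 was the lowest of the 3 Foxo1ff samples for 80 of the 85 genes (94.1%), against 33.4% of all 11427 tested genes. The median of these genes in Foxo1ff 1 was 0.40 below the mean of the other two Foxo1ff samples on the log2(FPKM + 1) scale, where the median of all genes was 0.04 above it. Foxo1dd 2 had 13995 genes above 0, against 15474 to 16062 in the other 5 libraries, and the most ribosomal RNA precursor, with Rn45s at 40296 FPKM. Many of the results that Foxo1ff 1 changes are therefore given with and without it.

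Most ribosomal protein mRNAs sat modestly lower in Foxo1dd epithelium. Of the 85 genes tested with limma on log2(FPKM + 1), 44 fell and 1 rose at an adjusted p under 0.05, with p-values adjusted over all 11427 genes, and 40 were not called. Falls made up 51.8% of the tested ribosomal protein genes, against 34.2% of all tested genes, and rises 1.18%, against 22.2% of all genes. The median log2 change of the 85 genes was -0.41, with a middle range from -0.57 to -0.23, against a median of -0.15 over all tested genes. The 3 Foxo1dd values all lay below the 3 Foxo1ff values for 45 of the 85 genes (52.9%, against 39% of all genes) and above them for 1 (1.18%, against 25.3%).

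The counts moved with the scale and with Foxo1ff 1. Under median-of-ratios scaling, which moved the median of all genes up by 0.14 to -0.01, the ribosomal protein genes had a median of -0.26 and only 16 fell (18.8%, against 28.9% of all genes), while 1 rose. Without Foxo1ff 1, 64 of the 85 fell (75.3%, against 30.3% of all genes) and 2 rose, Rps27 and the pseudogene Rps4l. Leaving out other libraries lowered the count of falls to 23 without Foxo1ff 2, 26 without Foxo1ff 3 and 29 without Foxo1dd 3. Over all genes those settings gave 3050 falls of 11408 tested, 3521 of 11438 and 3682 of 11388. The share of ribosomal protein genes that fell was then close to that of all genes. With every library kept, on the deposited scale the share that fell was above the background, and after scaling it was below. The median of the ribosomal protein genes minus that of all genes was -0.27 as deposited, -0.25 under median-of-ratios scaling and -0.15 under quantile normalization, which gives every library the same distribution of values.

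**Figure D1:**
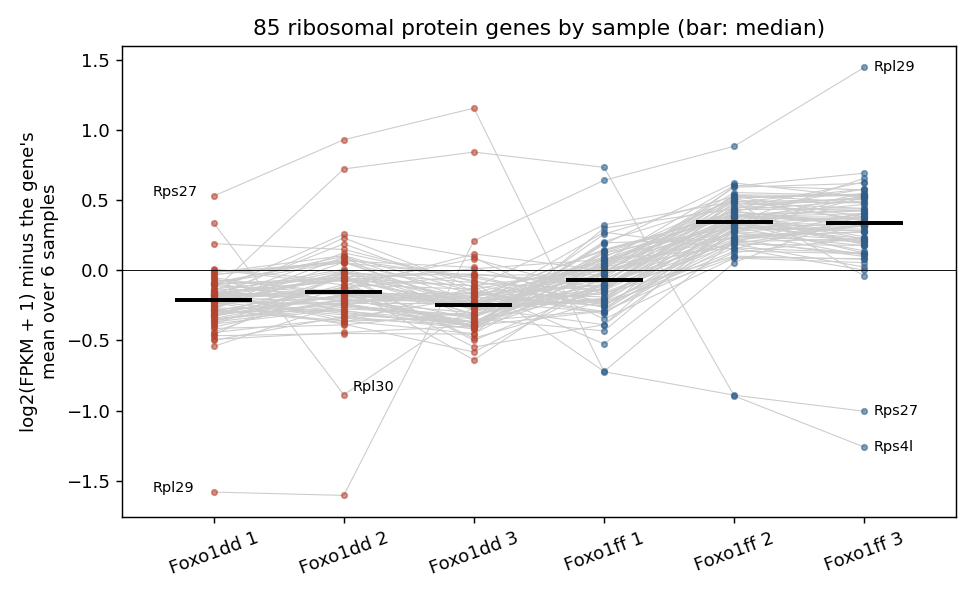
Each point is a tested ribosomal protein gene in a library, as log2(FPKM + 1) minus that gene's mean over the 6 libraries, with grey lines joining the values of a gene and black bars at the median of each library. The medians of the 3 Foxo1dd libraries lie between -0.25 and -0.16, that of Foxo1ff 1 at -0.07, and those of Foxo1ff 2 and 3 at 0.34.

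Seen gene by gene, Foxo1ff 2 held the highest of the 6 values for 46 genes and Foxo1ff 3 for 36, whereas a Foxo1dd library did so for 3 and Foxo1ff 1 for 0. The gap between Foxo1ff 1 and the mean of Foxo1ff 2 and 3 went with coding length (Spearman's rho = 0.44). This was over the 78 genes of at least 50 FPKM that have an annotated coding sequence. The genotype change, which itself contains Foxo1ff 1, had a rho of 0.02 with coding length, and of 0.11 without Foxo1ff 1. These 78 points share the same 6 libraries, so the values are descriptions. Genes with a coding length up to the median of 468 bases had a median gap of -0.52 and longer ones -0.37. The median genotype changes were -0.41 and -0.43, and without Foxo1ff 1 they were -0.61 and -0.53.

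**Figure D2:**
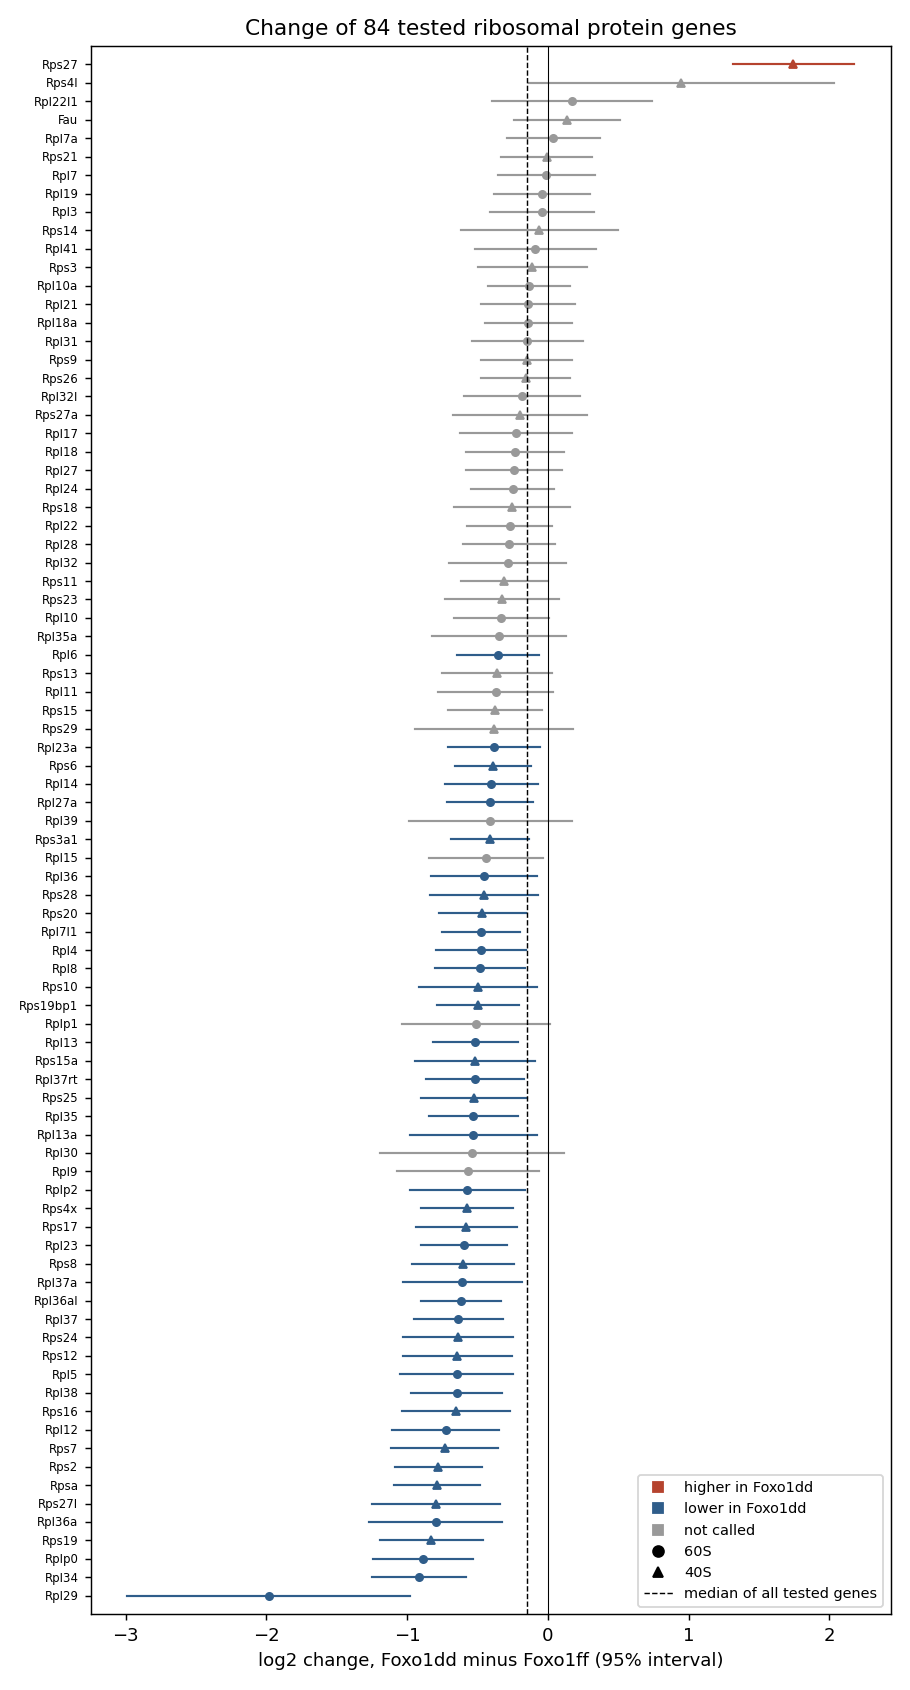
Log2 change of 84 of the 85 tested genes, Foxo1dd minus Foxo1ff, with its 95% interval from limma, circles for 60S and triangles for 40S genes; the dashed line is the median of all tested genes, -0.15. Rps27 stands on the right at 1.74, followed by the pseudogene Rps4l at 0.95, and Rpl29 on the left at -1.98. The remainder lie between -0.91 and 0.17.

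As a share of the summed FPKM of each library, ribosomal protein genes took 13.5%, 14.6% and 13.4% in Foxo1dd, against 13.6%, 16.8% and 16.98% in Foxo1ff. Foxo1ff 1 lies among the Foxo1dd libraries in this measure, and Foxo1ff 2 and 3 lie above all of them. The means were 13.8% ± 0.672 in Foxo1dd and 15.8% ± 1.91 in Foxo1ff (SD, n = 3 each), a difference of -1.99 percentage points that did not pass an exact two-sided permutation test (p = 0.2, where 3 against 3 samples cannot go below 0.1). The geometric mean of the 79 genes with at least 50 FPKM was 722, 772 and 722 FPKM in Foxo1dd, against 809, 1099 and 1093 FPKM in Foxo1ff, or 0.738-fold (exact permutation p = 0.1, the smallest possible). In bulk RNA of this kind, fewer cells with high ribosomal protein expression and less of these mRNAs per cell cannot be told apart.

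The subunits moved alike. Of 50 tested 60S genes 24 fell and 0 rose, with a median of -0.41, and of 35 tested 40S genes 20 fell and 1 rose, with a median of -0.45. Of all tested genes 34.2% fell and 22.2% rose, the background for these counts and for those of the smaller groups below. Without Foxo1ff 1, 37 of the 60S genes and 27 of the 40S genes fell. The background without it was 30.3% of all tested genes, also for the smaller groups. The ratio of summed 60S to summed 40S FPKM was 1.43, 1.37 and 1.41 in Foxo1dd, against 1.38, 1.39 and 1.37 in Foxo1ff. The groups overlap in that ratio and it did not pass the exact permutation test (difference 0.0233, p = 0.4).

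**Figure D3:**
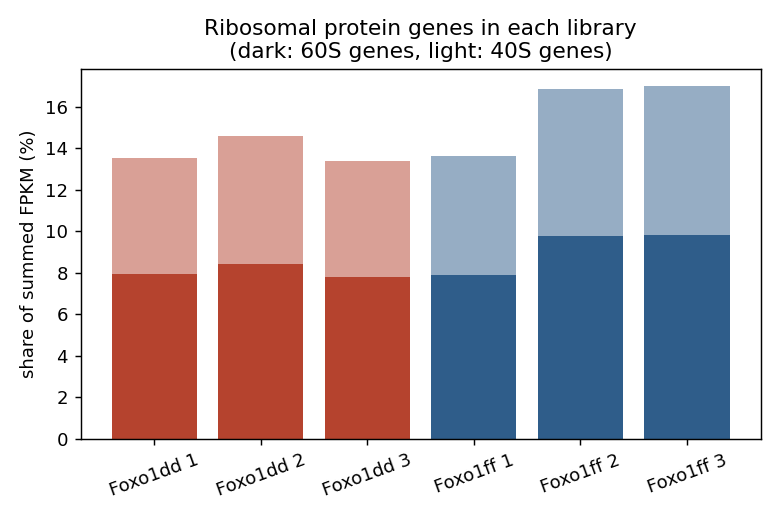
Bars give the share of each library's summed FPKM taken by the 90 ribosomal protein genes, from 13.4% to 14.6% in the 3 Foxo1dd libraries and from 13.6% to 16.98% in the 3 Foxo1ff libraries, with 60S genes in the dark and 40S genes in the light part. Foxo1ff 1 is level with the Foxo1dd libraries.

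The P stalk, the flexible arm of the 60S subunit that recruits the GTPases of translation, had the lowest median log2 change of the role groups on the deposited scale (-0.65), and 3 of its 4 genes fell. Under quantile normalization its median was -0.26, above the -0.34 of the 5S-binding genes Rpl5 and Rpl11, and 1 of the 4 fell. Rplp0, the stalk's base (chromosome 5, 115559467 to 115563727, plus strand, GRCm38), was at 1580, 1635 and 1689 FPKM in Foxo1dd, against 2531, 3423 and 3187 FPKM in Foxo1ff. The groups are well apart, with the highest Foxo1dd value below Foxo1ff 1. Its log2 change was -0.89 ± 0.16 (SE, limma adjusted p = 0.00121), or 1.86-fold lower.
Rpl12, which joins the stalk to the subunit, was at 1379, 1304 and 1224 FPKM in Foxo1dd and at 1712, 2408 and 2426 FPKM in Foxo1ff, a change of -0.73 ± 0.17 (limma adjusted p = 0.00542; 0.0918 under quantile normalization). Rplp2 was at 1000, 1088 and 949 FPKM in Foxo1dd and 1143, 1675 and 1770 FPKM in Foxo1ff, a change of -0.57 ± 0.18 (limma adjusted p = 0.024). The Rplp2 call was lost when Foxo1ff 2, Foxo1ff 3, Foxo1dd 1 or Foxo1dd 3 was left out (limma adjusted p = 0.0708 to 0.0923), without a filter (0.0854) and under median-of-ratios scaling (0.139) or quantile normalization (0.221). Its partner in the stalk dimer, Rplp1, was at 2512, 2471 and 2154 FPKM in Foxo1dd and 2317, 4048 and 4122 FPKM in Foxo1ff. Foxo1ff 1 lies inside the Foxo1dd range for Rplp1, which was not called with it (-0.51 ± 0.23, limma adjusted p = 0.0883) and fell without it (-0.78, limma adjusted p = 0.00104).

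Rpl5 and Rpl11, which carry the 5S ribosomal RNA and bind Mdm2 when left outside the ribosome, gave unlike calls. Rpl5 was at 303, 299 and 273 FPKM in Foxo1dd, against 341, 530 and 527 FPKM in Foxo1ff, and fell by 0.65 on the log2 scale (limma adjusted p = 0.0123; 0.053 without Foxo1ff 2 and 0.0671 under median-of-ratios scaling). Rpl11 was at 477, 571 and 472 FPKM in Foxo1dd and 499, 749 and 748 FPKM in Foxo1ff, where Foxo1ff 1 is below Foxo1dd 2, and was not called (-0.37 ± 0.18, limma adjusted p = 0.107). Without Foxo1ff 1 both fell, Rpl5 by 0.86 and Rpl11 by 0.57 on the log2 scale (limma adjusted p = 0.000409 and 0.00643). The difference between the changes of Rpl5 and Rpl11 was not tested.

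Around the exit tunnel, through which the new protein chain leaves, 3 of 7 tested genes fell: Rpl4, Rpl23a and Rpl35. Without Foxo1ff 1, 5 of the 7 fell. Rpl4, among the 5 most abundant of the family, was at 2079, 1860 and 2062 FPKM in Foxo1dd, against 2598, 3049 and 2705 FPKM in Foxo1ff (-0.48 ± 0.14, limma adjusted p = 0.0185). The groups do not overlap, but the call was lost without Foxo1dd 2 (limma adjusted p = 0.0739), without Foxo1ff 2 (0.0725), without a filter on low values (0.135), under median-of-ratios scaling (0.131) and under quantile normalization, where the change was -0.03 (0.86). Of the 3 genes around the peptidyl transferase centre Rpl8 fell (-0.48, limma adjusted p = 0.0171) and Rpl10 was not called (-0.33). Rpl10 fell when Foxo1ff 1 was left out (limma adjusted p = 0.00701). Rpl3, whose protein reaches towards that centre, stood at 735, 800 and 668 FPKM in Foxo1dd and 606, 812 and 873 FPKM in Foxo1ff. The Rpl3 groups overlap throughout (-0.04 ± 0.16).

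In the 40S subunit, 1 of the 5 genes at the mRNA entry and decoding site, Rps2, fell, and 3 fell without Foxo1ff 1. Rps2 was at 514, 636 and 570 FPKM in Foxo1dd, against 896, 1081 and 976 FPKM in Foxo1ff, which is a wide gap (-0.78 ± 0.14, limma adjusted p = 0.00112). Fau, whose product is cut into a ubiquitin-like protein and the 40S protein eS30, was at 707, 936 and 835 FPKM in Foxo1dd and 615, 832 and 813 FPKM in Foxo1ff, overlapping and not called (0.14 ± 0.17). At the mRNA exit and platform, Rpsa and Rps28 were among the genes that fell. Rpsa, known also as the laminin receptor precursor, was at 886, 952 and 918 FPKM in Foxo1dd, against 1390, 1695 and 1682 FPKM in Foxo1ff (-0.78 ± 0.14, limma adjusted p = 0.00101). No Foxo1dd value came near the Foxo1ff range. Of the 3 beak genes, Rps12 (-0.64) and Rps10 (-0.50) fell. Rps27a (-0.20), whose product is cut into ubiquitin and a 40S protein, was not called, but fell without Foxo1ff 1 (limma adjusted p = 0.0222).

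Elsewhere in the subunits Rps19, mutated in human Diamond-Blackfan anaemia, was at 351, 395 and 372 FPKM in Foxo1dd, against 519, 756 and 740 FPKM in Foxo1ff, and fell by 0.83 on the log2 scale (limma adjusted p = 0.00212). Rps19bp1 moved the same way, at 30.2, 25.4 and 23.9 FPKM in Foxo1dd and 36.2, 37.0 and 39.7 FPKM in Foxo1ff (-0.50 ± 0.13, limma adjusted p = 0.00919). Rps7 was at 742, 755 and 804 FPKM in Foxo1dd and 998, 1453 and 1431 FPKM in Foxo1ff (-0.73 ± 0.17, limma adjusted p = 0.00479). In these 3 genes every Foxo1dd library was below every Foxo1ff library.
Rpl36a, a 60S protein near the exit site for tRNA, was at 417, 375 and 326 FPKM in Foxo1dd and 457, 742 and 792 FPKM in Foxo1ff (-0.80 ± 0.21, limma adjusted p = 0.00996). Its retrogene copy Rpl36al was at 242, 260 and 247 FPKM in Foxo1dd and 332, 407 and 418 FPKM in Foxo1ff (-0.62 ± 0.13, limma adjusted p = 0.00265). Both fell, and their log2 ratio, -0.57 ± 0.20 in Foxo1dd and -0.75 ± 0.25 in Foxo1ff (SD, n = 3 each), did not pass the exact permutation test (p = 0.3).

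The largest fall was that of Rpl29, a small 60S protein (chromosome 9, 106429454 to 106431568, plus strand). Its FPKM was 75.8, 74.6 and 265 in Foxo1dd, against 358, 423 and 626 in Foxo1ff. Foxo1dd 3 stands far above the other two Foxo1dd libraries, and still below every Foxo1ff library. The log2 change was -1.98 ± 0.44 (limma adjusted p = 0.00442), or 3.39-fold lower, with an interval from -2.99 to -0.98. Of the 50-base stretches of Rpl29, 21.5% were found in no other gene, and 84 other genes held some of the rest. The level and the change of Rpl29 carry that uncertainty. Set against the geometric mean of the abundant ribosomal protein genes in the same library, which removes any scaling between libraries, Rpl29 was at 0.105, 0.0966 and 0.367 in Foxo1dd and 0.442, 0.385 and 0.573 in Foxo1ff (exact permutation p = 0.1, the smallest possible). By the same ratio, Rplp0 was at 2.19, 2.12 and 2.34 in Foxo1dd and 3.13, 3.11 and 2.92 in Foxo1ff, and Rps19 at 0.486, 0.512 and 0.516 in Foxo1dd and 0.641, 0.688 and 0.677 in Foxo1ff (exact permutation p = 0.1 each). Foxo1ff 1 is in step with Foxo1ff 2 and 3 in these ratios, although its levels are lower.

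Several abundant genes did not follow. The 5 tested genes with the smallest change were Rps21, Rpl7, Rpl7a, Rpl19 and Rpl3, with log2 changes between -0.04 and 0.04 (limma adjusted p between 0.836 and 0.961). Rpl7, the most abundant of the family, was at 3222, 2986 and 3397 FPKM in Foxo1dd and 2863, 3443 and 3390 FPKM in Foxo1ff, and Rpl7a was at 1743, 1866 and 1807 FPKM in Foxo1dd and 1514, 1899 and 1886 FPKM in Foxo1ff. Foxo1ff 1 is the lowest of the 6 libraries in both. Under quantile normalization Rpl7a was called higher (0.54, limma adjusted p = 0.00476). Relative to the geometric mean in the same library, Rpl7a was at 2.414, 2.417 and 2.504 in Foxo1dd, against 1.87, 1.73 and 1.73 in Foxo1ff, and Fau at 0.979, 1.21 and 1.16 in Foxo1dd, against 0.760, 0.757 and 0.744 in Foxo1ff (exact permutation p = 0.1 each). These genes thus made up a larger part of the ribosomal protein mRNA in every Foxo1dd library than in any Foxo1ff library. The genes set against the geometric mean were chosen after their values had been seen. Of the remaining most abundant genes, Rps26 was at 2302, 2481 and 2626 FPKM in Foxo1dd and 2751, 2908 and 2609 FPKM in Foxo1ff (-0.16 ± 0.14), and Rpl32 at 2215, 2502 and 2115 FPKM in Foxo1dd and 2162, 3144 and 3118 FPKM in Foxo1ff (-0.28 ± 0.18). Neither was called, and Rpl32 fell without Foxo1ff 1 (limma adjusted p = 0.0134).

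Rps27 was the only gene that rose. It encodes a 40S zinc-finger protein and lies on chromosome 3, 90212522 to 90213651, minus strand. Its FPKM was 10.1, 13.7 and 16.2 in Foxo1dd, against 3.67, 3.16 and 2.84 in Foxo1ff, with no overlap. The log2 change was 1.74 ± 0.19 (limma adjusted p = 6.5e-05), or 4.14-fold. At the estimated depth this is about 268, 348 and 472 reads in Foxo1dd and 112, 107 and 80.7 reads in Foxo1ff, where Rpl7 had 184444 to 283577. Of all 50-base stretches in its transcript, 1.4% were found in no other GENCODE M21 gene, and 98.6% were shared with Rps27rt, a gene on chromosome 9 with an identical coding sequence, which is listed at 0 in all 6 libraries. How reads with several matches were treated is not given in the sources used here, so the level and the change of Rps27 are uncertain.

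Its paralog Rps27l, on chromosome 9 (66946086 to 66949516, plus strand), has a transcript with a coding sequence of the same length, 252 bases, that is 76.2% identical and differs at 60 positions. The pair is printed to show those differences, in capitals in Rps27l. In another Rps27l transcript, with the longer coding sequence of 315 bases, 86.3% of the 50-base stretches were found in no other gene.
Rps27: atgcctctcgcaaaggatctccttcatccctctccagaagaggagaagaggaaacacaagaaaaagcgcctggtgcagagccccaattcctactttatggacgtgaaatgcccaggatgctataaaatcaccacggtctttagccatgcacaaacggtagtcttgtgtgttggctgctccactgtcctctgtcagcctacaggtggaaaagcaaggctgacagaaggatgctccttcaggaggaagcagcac
Rps27l: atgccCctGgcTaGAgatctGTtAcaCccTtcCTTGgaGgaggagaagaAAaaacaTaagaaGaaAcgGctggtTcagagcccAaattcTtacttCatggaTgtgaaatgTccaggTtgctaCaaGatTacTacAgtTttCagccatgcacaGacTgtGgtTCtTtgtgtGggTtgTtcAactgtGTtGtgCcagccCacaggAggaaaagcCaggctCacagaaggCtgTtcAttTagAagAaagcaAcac

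Rps27l was at 125, 157 and 109 FPKM in Foxo1dd, against 168, 257 and 262 FPKM in Foxo1ff, without overlap, and fell by 0.80 on the log2 scale (limma adjusted p = 0.00798). The ratio of Rps27l to Rps27 was 12.3, 11.5 and 6.72 in Foxo1dd, against 45.7, 81.3 and 92.2 in Foxo1ff (exact permutation p = 0.1, the smallest possible). In each library of either genotype the listed value of the paralog was above that of the parent gene. The ratio carries the uncertainty of Rps27, with 1.4% of its 50-base stretches found in no other gene, against 86.3% for Rps27l. It therefore does not establish which of the pair had more mRNA.

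**Figure D4:**
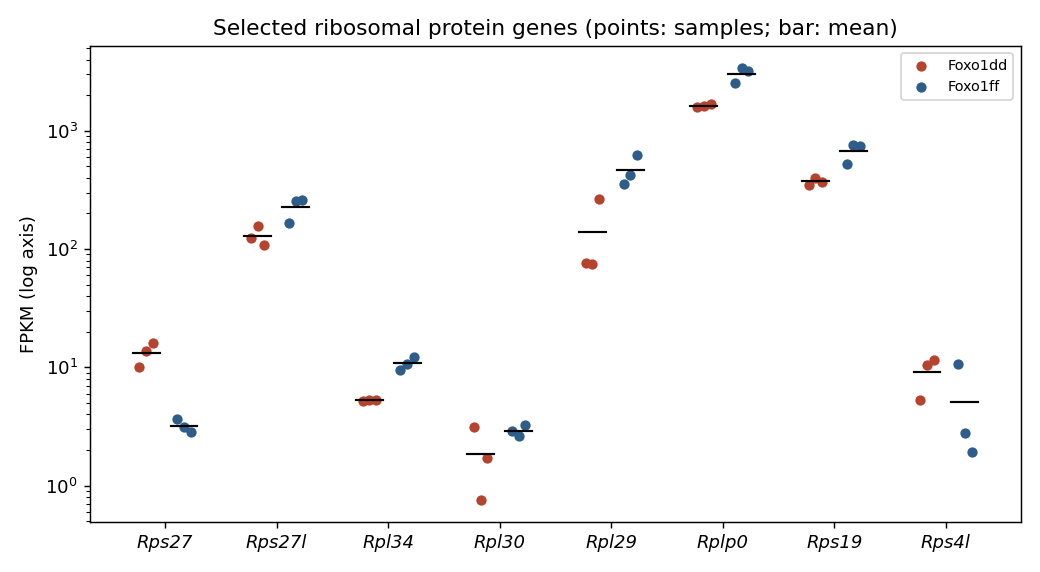
FPKM on a log axis for 8 ribosomal protein genes, with a point per library, Foxo1dd left of Foxo1ff, and a bar at each mean. Rps27 lies between 10.1 and 16.2 FPKM in Foxo1dd and between 2.84 and 3.67 FPKM in Foxo1ff, while Rps27l, Rpl34, Rpl29, Rplp0 and Rps19 are lower in every Foxo1dd library and Rpl30 and Rps4l overlap.

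Of the 6 tested paralogs and relatives 4 fell and 0 rose. Rpl22l1 was at 241, 235 and 200 FPKM in Foxo1dd and 128, 220 and 281 FPKM in Foxo1ff, overlapping and not called (0.17 ± 0.25), and its parent Rpl22 was at 231, 211 and 212 FPKM in Foxo1dd and 222, 282 and 290 FPKM in Foxo1ff, not called either (-0.27 ± 0.13; limma adjusted p = 0.0187 without Foxo1ff 1). Their log2 ratio, 0.05 ± 0.12 in Foxo1dd and -0.40 ± 0.38 in Foxo1ff (SD, n = 3 each), overlapped (exact permutation p = 0.2). Rpl7l1, a relative of Rpl7 associated with ribosome assembly, was at 57.3, 55.9 and 47.1 FPKM in Foxo1dd and 68.6, 78.1 and 76.6 FPKM in Foxo1ff, and fell by 0.47 on the log2 scale (limma adjusted p = 0.00949; 0.0694 under median-of-ratios scaling). Its log2 ratio to Rpl7 differed by -0.47 with no overlap (exact permutation p = 0.1, the smallest possible). Rps4l, a processed pseudogene by type, was at 5.34, 10.6 and 11.6 FPKM in Foxo1dd and 10.7, 2.77 and 1.93 FPKM in Foxo1ff. Foxo1ff 1 is within the Foxo1dd range, and the call depends on it: 0.95 ± 0.48 with it (limma adjusted p = 0.122) and 1.55 without it (0.00391). Rpl10l, Rpl39l and Rps27rt were listed at 0 in all 6 libraries, and Rpl3l, known from muscle, was at 0.439, 0.949 and 0.679 FPKM in Foxo1dd and at 0, 0.0760 and 0.333 FPKM in Foxo1ff, under the minimum for a test. Rpl39, the parent of Rpl39l, was at 702, 662 and 477 FPKM in Foxo1dd and 533, 935 and 1044 FPKM in Foxo1ff and was not called (-0.41 ± 0.26; limma adjusted p = 0.0109 without Foxo1ff 1).

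A few core genes had levels far below the others. Rpl26 was listed at 0 in all 6 libraries, although cells use it at every ribosome. Rpl30 was at 3.11, 0.756 and 1.71 FPKM in Foxo1dd and 2.92, 2.61 and 3.24 FPKM in Foxo1ff, overlapping and not called (-0.54 ± 0.29). Rpl34 was at 5.21, 5.28 and 5.26 FPKM in Foxo1dd, against 9.57, 10.6 and 12.3 FPKM in Foxo1ff, and fell by 0.91 on the log2 scale (limma adjusted p = 0.000678). Their shares of stretches found in no other gene were 28.7%, 23.6% and 51.1% for Rpl26, Rpl30 and Rpl34. Rpl35, with 4.9%, and Rpl10, with 7.9%, averaged over 1000 FPKM all the same. For Rpl35, 59% of the stretches were shared with Wdr38, which overlaps it antisense at the same place. That part of its low share goes with the overlap. In all, 12 other genes held some of the Rpl35 stretches, while only Wdr38 and Arpc5l overlap it. For Rpl10, 92.1% were shared with Rpl10-ps3. The part of reads with several matches in these levels was not tested. Of the genes with at least 50% of such stretches 32 were tested, 19 fell and 0 rose, with a median log2 change of -0.46, an alternative chosen after the data had been seen. Of all tested genes 34.2% fell and 22.2% rose.

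**Figure D5:**
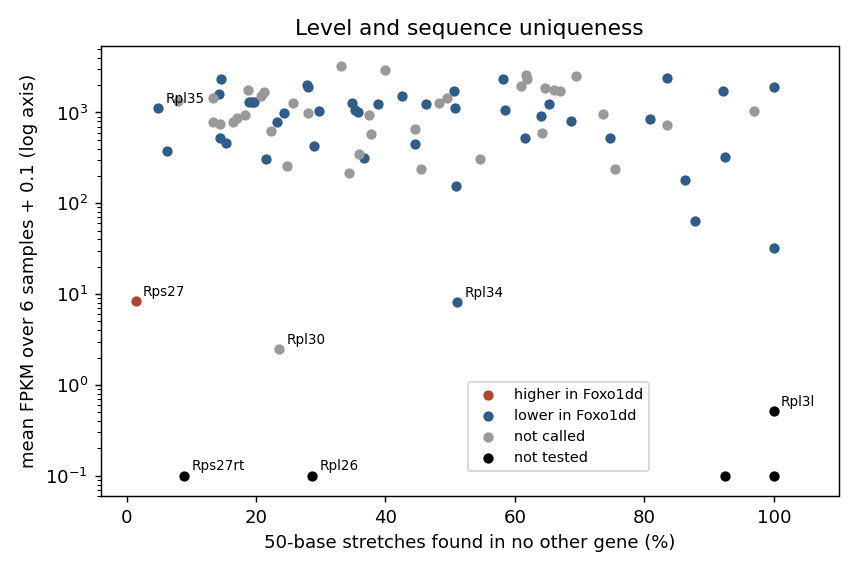
Each point is a ribosomal protein gene with a coding transcript, placed by the percent of its 50-base stretches found in no other gene and by its mean FPKM over the 6 libraries plus 0.1, on a log axis. Most points lie above 100 FPKM at any share, while Rps27, at 1.4%, Rpl30, Rpl34 and the genes listed at 0 lie far below.

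Under each of the 17 settings run, 13 genes fell: Rpl29, Rpl34, Rpl36a, Rpl36al, Rpl37, Rpl38, Rplp0, Rps19, Rps19bp1, Rps2, Rps27l, Rps7 and Rpsa. Every other call of a fall was lost under at least 1 setting. Rpl38, known in the mouse for its part in translating Hox mRNAs, was at 333, 359 and 348 FPKM in Foxo1dd, against 449, 585 and 612 FPKM in Foxo1ff (-0.65 ± 0.14, limma adjusted p = 0.00396). Rpl37, at 633, 635 and 602 FPKM in Foxo1dd and 830, 1108 and 991 FPKM in Foxo1ff, changed by -0.64 ± 0.14 (limma adjusted p = 0.00393). The Foxo1ff libraries other than Foxo1ff 1 were the highest in each.

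Proteins that sit on the ribosome but fall outside the symbol rule were read beside these genes. Rack1, on the head of the 40S subunit, was at 1338, 1468 and 1496 FPKM in Foxo1dd, against 1901, 2554 and 2556 FPKM in Foxo1ff, and fell (-0.69 ± 0.16, limma adjusted p = 0.00534; -0.26 and 0.0817 under quantile normalization). Serbp1, which occupies the mRNA channel of idle ribosomes, also fell (-0.45; not called without Foxo1ff 2), and Btf3, part of the complex that meets new chains, was not called (0.17; called higher under quantile normalization). Of 7 chaperones that escort ribosomal proteins, 4 fell and 1 rose, with 2 falls when Foxo1ff 1, Foxo1ff 2 or Foxo1dd 3 was left out and 1 without Foxo1ff 3, under median-of-ratios scaling or under quantile normalization. On the deposited scale 34.2% of all tested genes fell and 22.2% rose. Grwd1, which escorts Rpl3, was at 11.2, 9.57 and 8.58 FPKM in Foxo1dd, against 31.1, 29.2 and 26.9 FPKM in Foxo1ff (-1.48 ± 0.14, limma adjusted p = 2.84e-05). Pdcd2, which escorts Rps2, rose (0.81, limma adjusted p = 0.00243), and Bccip, which escorts Rpl23, fell (-0.46, limma adjusted p = 0.0187). The Bccip call was lost under median-of-ratios scaling, under quantile normalization and when Foxo1ff 2, Foxo1ff 3 or Foxo1dd 3 was left out (limma adjusted p = 0.0618 to 0.0858). Thus the chaperone of Rpl3 fell where Rpl3 was not called, and the chaperone of Rps2 rose where Rps2 fell. The chaperone of Rpl23 fell on the deposited scale where Rpl23 fell too (-0.60, limma adjusted p = 0.00471).

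Among mRNAs that share the TOP start without encoding ribosomal proteins, 8 of 18 fell and 1 rose, with 5 falls without Foxo1ff 2 and 0 rises when any Foxo1dd library was left out. Of all tested genes 34.2% fell and 22.2% rose, the background for this list and for those that follow. Whether any list differs from that background was not tested. Eef1g, a subunit of the factor that reloads the elongation factor eEF1A, was at 357, 368 and 325 FPKM in Foxo1dd, against 779, 1002 and 880 FPKM in Foxo1ff, a larger fall on the log2 scale than that of any ribosomal protein gene except Rpl29 (-1.33 ± 0.13, limma adjusted p = 3.95e-05). Npm1, a nucleolar assembly factor, changed by -1.18 and Nap1l1 by -0.89 (limma adjusted p = 5.46e-05 and 0.000795). Of 6 elongation factors 4 fell (2 without Foxo1ff 2), with Eif5a at -0.94 and Eef1d at -0.41. Of 24 initiation factors outside eIF3, 15 fell and 1 rose, with Eif1a (-0.92), Eif2s2 (-0.87) and Eif2s1 (-0.60) showing the smallest p, whereas of 12 tested eIF3 subunits only Eif3l (-0.58) and Eif3d (-0.51) fell and Eif3b rose (0.60).
Among 16 regulators of TOP mRNAs 6 fell and 2 rose, with 3 falls without Foxo1ff 1 or without Foxo1ff 2. Eif4ebp1, the repressor of the cap-binding protein eIF4E, was at 5.15, 6.38 and 6.97 FPKM in Foxo1dd, against 177, 229 and 181 FPKM in Foxo1ff (-4.78 ± 0.15, limma adjusted p = 1.21e-07). Larp1 was at 40.4, 31.5 and 40.2 FPKM in Foxo1dd, against 74.4, 62.1 and 53.0 FPKM in Foxo1ff, and fell (-0.74). Pdcd4, an inhibitor of the helicase eIF4A, rose (0.79).

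The ribosomal proteins of mitochondria, a separate family, gave 32 lower and 7 higher of 78 tested, with a median of -0.32. Cytosolic genes had 44 lower and 1 higher of 85, with a median of -0.41. Of all tested genes 34.2% were lower and 22.2% higher, with a median of -0.15. Under median-of-ratios scaling 22 of the 78 mitochondrial and 16 of the 85 cytosolic genes were lower, with medians of -0.17 and -0.26. Under quantile normalization 24 and 18 were lower, with medians of -0.174 and -0.153. Of all 11427 tested genes 3302 and 3360 were lower in those settings. Which family had the larger share of lower genes thus changed with the scale, and the difference between the families was not tested.

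Markers of dividing cells moved with the ribosomal protein genes. Of 18 such genes 17 fell and 0 rose, and their summed level was 159, 121 and 158 FPKM in Foxo1dd, against 476, 750 and 642 FPKM in Foxo1ff, where Foxo1ff 1 was again the lowest of its group. Of 4 tested glandular markers 3 fell and 1 rose, and Ttr of the 8 listed was at 0. Their sums were 1.21 to 6.82 FPKM in Foxo1dd and 52.0 to 210 FPKM in Foxo1ff. Most of the Foxo1ff sums came from Spink1. Prss28 and Prss29 were at 3.84 and 2.96 FPKM in Foxo1ff 1 and at 12.2 and 17.6 FPKM in Foxo1ff 3. Foxa2 averaged under 1 FPKM, was not tested and overlapped (0.399 to 0.908 FPKM in Foxo1dd, 0.643 to 1.36 FPKM in Foxo1ff). The 10 luminal and pan-epithelial markers, 4 higher and 2 lower, summed to 4070 to 5051 FPKM in Foxo1dd and 2878 to 3846 FPKM in Foxo1ff. Of 12 tested leukocyte markers 8 fell and 2 rose, with sums of 98.4 to 109 FPKM in Foxo1dd and 77.2 to 129 FPKM in Foxo1ff. Laptm5 alone, singled out after its values were seen, made up 65.5, 53.2 and 70.7 FPKM of these sums in Foxo1dd and 2.73, 3.60 and 5.78 FPKM in Foxo1ff. The sums of the other 15 markers were 32.9 to 46.4 FPKM in Foxo1dd and 71.4 to 126 FPKM in Foxo1ff, and do not overlap. Stroma markers gave 3 higher (0 to 6 when a library was left out, 6 without Foxo1dd 2) and 0 lower of 10 tested, with sums of 41.5 to 59.3 FPKM in Foxo1dd and 38.3 to 42.2 FPKM in Foxo1ff. Smooth muscle markers summed to 5.34 to 7.01 FPKM in Foxo1dd and 3.39 to 5.92 FPKM in Foxo1ff (1 of 3 tested rose). Endothelial markers summed to 4.69 to 5.84 FPKM in Foxo1dd and 5.11 to 6.58 FPKM in Foxo1ff (the 1 tested fell), and all 4 erythroid markers were listed at 0. The part of these markers, and of the cells they stand for, in the ribosomal protein result was not tested.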

How the data were processed

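The authors deposited FPKM values for 24964 genes in 6 libraries. The submitters' processing notes list DESeq2 1.12.4, edgeR 3.28.0, featureCounts 1.5.0-p1 (Subread), STAR 2.5.2b and the build mm10 without saying what each did. Not given in the sources used here are the annotation, gene lengths, strand setting and handling of reads with several matches. Many ribosomal protein genes share sequence with pseudogenes, host small nucleolar RNAs or overlap antisense genes, so their values carry that uncertainty. limma 3.58.1 (R 4.3.3; lmFit, eBayes with trend) was fitted to log2(FPKM + 1) with genotype alone, over the 11427 genes averaging 1 FPKM or more, with Benjamini-Hochberg adjustment at 0.05. Log2 changes are Foxo1dd minus Foxo1ff and understate changes of low genes; folds are ratios of mean FPKM. Shares and ratios used exact permutation tests. The procedure was tested on simulated data. Depth was read from steps in low FPKM values of short RNA genes (88.5% to 100% whole to within 0.05 of a read, least certain in Foxo1dd 2), and read numbers are estimates from it. Unique 50-base stretches were counted in 1 GENCODE M21 transcript per gene against transcripts of all other genes, on both strands. Positions are GENCODE M21 on GRCm38, sequences of starts are RefSeq on GRCm38.p6 and coding sequences GENCODE M21. Named are the genes that rose, the 10 largest falls, the 5 smallest changes, the 5 highest levels, the stalk and 5S genes, paralogs with their parents, and the 3 smallest p of each list that holds no cell type markers; any other gene was chosen after its values were seen. The members, lists and alternatives were chosen with earlier results of these data known. Alternatives were other pseudocounts (0.1, 0.5) and filters, other scalings, other limma settings, a replicate block and leaving out each library. Left out were 6 rows whose symbols contain -ps. For 1 tested gene the single values are not reported here; it stays in the fits and counts.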

Additional observations from a re-analysis of the deposited data

How the results depend on the processing

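The count of ribosomal protein genes that fell, 44 on the deposited scale, was 25 without a filter, 16 under median-of-ratios scaling, 18 under quantile normalization and 64 with array weights, and ranged from 23 to 64 when a library was left out (23 without Foxo1ff 2, 26 without Foxo1ff 3, 29 without Foxo1dd 3 and 64 without Foxo1ff 1). The count that rose, 1, was 2 without a filter, 5 under quantile normalization and 2 with array weights, and ranged from 1 to 2 when a library was left out. Over all genes, 2533 of 11427 rose on the deposited scale and 2802 of 17891 without a filter. Under quantile normalization 3236 of 11427 rose, and with array weights 3057 of 11427. When a library was left out, from 2134 of 11408 to 2714 of 11438 rose. Falls over all genes were 3912 of 11427 tested on the deposited scale and 4151 of 17891 without a filter. The setting without a filter tested 86 ribosomal protein genes and not 85. Of 11427 genes 3302 fell under median-of-ratios scaling and 3360 under quantile normalization. With array weights 4424 of 11427 fell, and from 3050 of 11408 to 3751 of 11417 when a library was left out. Among genes with at least 50% unique stretches 19 fell and 0 rose. Over the 85 tested genes the median change, -0.41 on the log2 scale, was -0.15 under quantile normalization and ranged from -0.54 to -0.35 when a library was left out, so its sign held in each of the 17 settings. Signs turned for 12 of the 85 genes under median-of-ratios scaling and 23 under quantile normalization. Among the named genes, under median-of-ratios scaling and quantile normalization Rps21 was at 0.14 and 0.22, Rpl7 at 0.14 and 0.29, Rpl19 at 0.11 and 0.36, and Rpl3 at 0.11 and 0.23, and under quantile normalization Rps26 was at 0.18 and Rpl32 at 0.23. Rpl7a was at -0.063 with array weights and, called higher, at 0.54 under quantile normalization (limma adjusted p = 0.00476). When a library was left out the changes ranged from -0.13 to 0.057 for Rps21, -0.096 to 0.039 for Rpl7, -0.069 to 0.095 for Rpl7a, -0.16 to 0.030 for Rpl19, -0.20 to 0.062 for Rpl3 and -0.15 to 0.42 for Rpl22l1. The cause was not tested. Same-numbered samples did not pair (correlations of deviations 0.12, 0.11 and -0.13; Foxo1dd 1 correlated best with its own number, Foxo1dd 2 with Foxo1ff 3 and Foxo1dd 3 with Foxo1ff 1); with the replicate block 43 fell, 41 of them shared with the 44, and 1 rose. The low genes Rps27, Rpl30 and Rpl34 are limited by reads, estimated at 31.8 to 517 per library, and a group of 3 limits all p-values.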
